A study of Mus musculus with 8 samples.

Results

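The acute phase genes Saa3, Ptx3, Lcn2, Hp, Cp and Sod2 were followed in bone marrow-derived cultures treated with recombinant S100A8/A9. They were taken by symbol, and all 6 were found among the 55450 genes of the table for replicates 1 to 3 and among the 24848 genes of a second table for replicate 4. The study set 4 RNA sequencing libraries of mouse cells given recombinant S100A8/A9, a pair of calcium-binding proteins that myeloid cells release, against 4 given phosphate-buffered saline, called vehicle here. All cultures came from bone marrow of mice with dry eye of Sjögren's syndrome, an autoimmune disease of tear and salivary glands, so no library is from a healthy animal. The labels used here give no strain, age, dose or time, and do not say whether a replicate number marks an animal. They call the cells dendritic cells, and the abbreviation in the titles is one commonly read as macrophages.

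The acute phase response is the rapid rise of a set of secreted proteins when interleukin-1, interleukin-6 or tumor necrosis factor reaches the liver. Several of these genes are also switched on locally in macrophages, dendritic cells and neutrophils through NF-kB, C/EBP and STAT3 transcription factors. Saa3 and Ptx3 encode proteins of innate recognition. Lcn2, Hp and Cp encode proteins that bind iron carriers, hemoglobin or copper, and Sod2 encodes an enzyme of the mitochondrial matrix.

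Levels are in FPKM, fragment counts normalized to transcript length and to sequencing depth, so they can be compared between genes. Reads per library were roughly 22900000 to 25600000 in replicates 1 to 3, estimated from the low values, and about 33400000 with S100A8/A9 and 31900000 with vehicle in replicate 4. All 11 macrophage markers were at 5.61 FPKM or more in replicates 1 to 3. Of 10 pan dendritic cell markers, Flt3, a growth factor receptor of dendritic cell progenitors, Dpp4 and Kmo stayed under 1 FPKM there. The others were at 2.13 FPKM or more, with Itgax between 47.2 and 66.9 FPKM, the antigen presentation gene H2-Aa between 442 and 714 FPKM and the migration receptor gene Ccr7 between 141 and 227 FPKM. In bulk RNA, fewer cells of a type and less RNA per cell cannot be told apart. Replicate 4 comes from a separately made table, so it was set against the other replicates through ratios within a replicate number. The exception is an alternative fit of all 8 libraries with the replicate number as a block.

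None of the 6 genes passed the test. Limma on log2(FPKM + 1) called 0 of 11387 genes (0%) at an adjusted p under 0.05, with 344 genes at an unadjusted p under 0.05 (3.02%). With the replicate number as a block it called 59 genes (0.518%), none of them among the 6. Of the 6 genes, 5 were tested, and Ptx3 was below the filter of 1 FPKM in at least 3 of 6 libraries. Saa3, Hp and Sod2 had more FPKM in the S100A8/A9 library than in the vehicle library of all 4 replicate numbers. Of 11180 genes that passed this filter and were in both tables, 1313 did so (11.7%). Over replicates 1 to 3 these 3 genes were also higher in each number, as were 2205 of 11387 genes (19.4%). The median log2 change of the 5 tested members was 0.16, beside 0.02 over all tested genes.

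**Figure D1:**
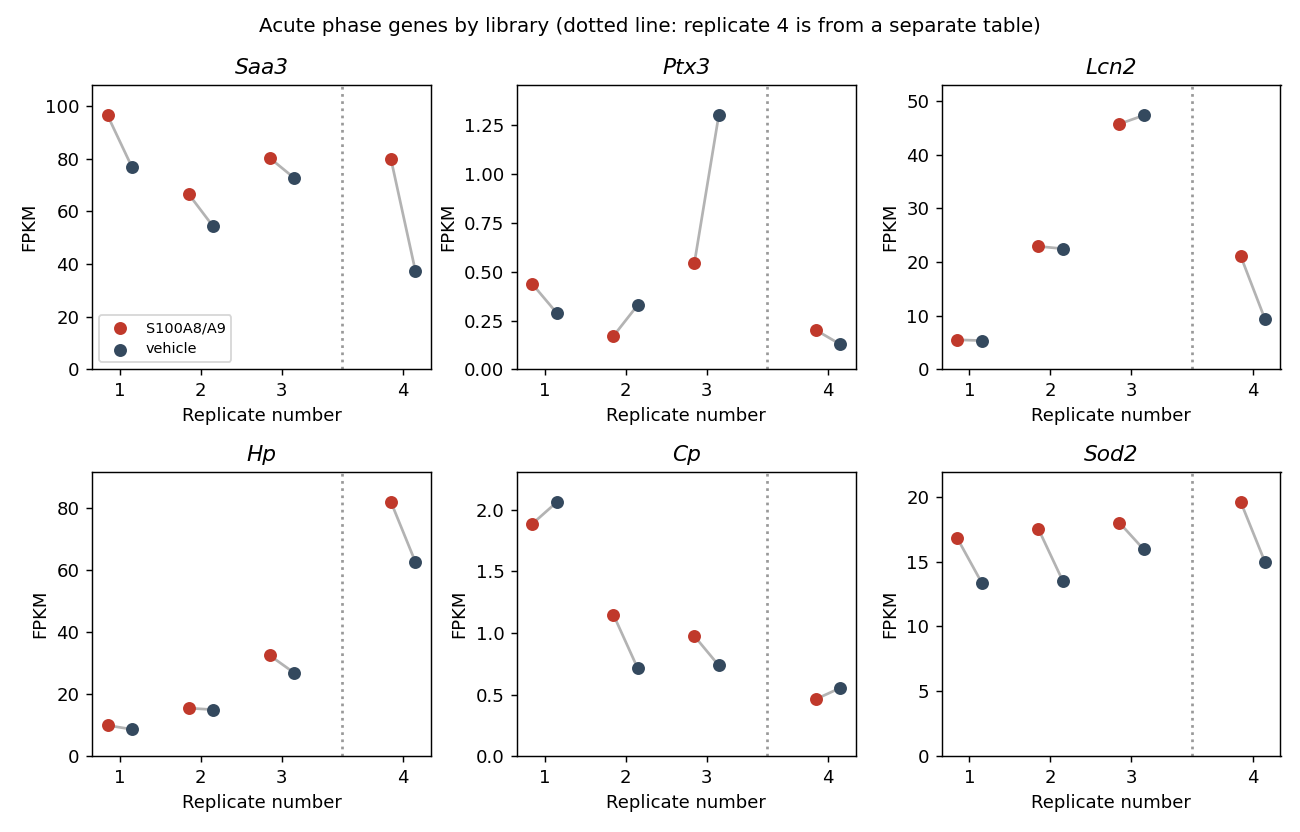
FPKM (y axis, from 0) of each gene by replicate number (x axis), with S100A8/A9 libraries in red left of their vehicle libraries in dark blue and a grey line joining libraries of 1 number. Saa3, Hp and Sod2 are higher with S100A8/A9 in all 4 numbers, and Lcn2 spans 5.39 to 47.3 FPKM among vehicle replicates 1 to 3.

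The promoters of Saa3, Sod2 and Lcn2 are shown because the first pair was higher with S100A8/A9 in every replicate number and Lcn2 was not. Lcn2 was higher in 3 of 4 numbers, with a ratio of 0.966 in replicate 3 and 2.26 in replicate 4. Hp was also higher in every number, but no window of it was at hand. Each window runs from 250 bases before to 50 bases after the RefSeq start, on GRCm38.p6, read along the gene's strand. Capitals mark matches on either strand to the kappa B site of NF-kB, the STAT site TTCNNNGAA, or the C/EBP sites TTGCNNCAA and TTNNGCAA.
Saa3, chr7:46715627-46715926, reverse strand: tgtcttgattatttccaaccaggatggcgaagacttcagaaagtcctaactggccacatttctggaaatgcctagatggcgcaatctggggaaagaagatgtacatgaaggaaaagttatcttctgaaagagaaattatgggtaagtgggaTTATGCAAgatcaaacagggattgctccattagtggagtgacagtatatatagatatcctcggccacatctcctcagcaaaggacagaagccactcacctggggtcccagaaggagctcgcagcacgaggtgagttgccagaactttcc
Sod2, chr17:13007589-13007888, forward strand: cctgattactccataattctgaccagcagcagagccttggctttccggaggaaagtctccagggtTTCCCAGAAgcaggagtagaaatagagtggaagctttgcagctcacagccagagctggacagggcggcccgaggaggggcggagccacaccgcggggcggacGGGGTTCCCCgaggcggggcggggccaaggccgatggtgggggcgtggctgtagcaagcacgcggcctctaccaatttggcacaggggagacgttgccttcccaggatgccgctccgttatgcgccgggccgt
Lcn2, chr2:32387690-32387989, reverse strand: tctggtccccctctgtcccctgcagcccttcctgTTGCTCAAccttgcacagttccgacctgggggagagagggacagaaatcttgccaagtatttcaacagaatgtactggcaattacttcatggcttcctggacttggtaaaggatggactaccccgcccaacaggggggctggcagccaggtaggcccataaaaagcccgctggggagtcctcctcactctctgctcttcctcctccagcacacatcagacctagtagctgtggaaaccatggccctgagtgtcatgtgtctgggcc

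The Saa3 window held 1 C/EBP match, TTATGCAA, from 99 to 92 bases before the start. The Lcn2 window held 1 C/EBP match on the opposite strand, printed as TTGCTCAA. The Sod2 window held a kappa B match, GGGGTTCCCC, and a STAT match, TTCCCAGAA, each matching on both strands and neither overlapping the other. Of the members not printed, Ptx3, without a shared direction, held kappa B matches and a C/EBP match, and Cp held a C/EBP match. Of 32851 windows of this length, 8.46% held a kappa B match, 8.30% held the STAT match, 2.08% held TTGCNNCAA and 10.8% held TTNNGCAA. These matches are letters in a sequence and do not show binding, and their link to the ratios was not tested.

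Saa3 encodes a serum amyloid A made mainly outside the liver in mice, an apolipoprotein that binds retinol and acts on innate receptors. It was the most abundant of the 6 genes in replicates 1 to 3. Saa3 had 96.4, 66.6 and 80.3 FPKM in S100A8/A9 replicates 1 to 3, against 76.9, 54.4 and 72.8 FPKM in vehicle replicates 1 to 3. The groups overlapped, yet each S100A8/A9 library was above the vehicle library of its own number. The ratios within replicates 1, 2 and 3 were 1.25, 1.22 and 1.10, a geometric mean of 1.19. In replicate 4 Saa3 had 79.7 FPKM with S100A8/A9 and 37.5 FPKM with vehicle, a ratio of 2.13. Those values correspond to about 6940 reads with S100A8/A9 and 3117 reads with vehicle, and the 95% exact binomial interval of the ratio, which covers counting error only, was 2.04 to 2.22. Replicate 4 thus showed a larger ratio than any of replicates 1 to 3, with 1 library per group there and no test.

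The log2 change of Saa3 in replicates 1 to 3 was 0.25 ± 0.18 (SE, 95% interval -0.17 to 0.67), and limma gave an adjusted p of 0.9998. It was 0.0994 with vehicle replicate 2 dropped, 0.119 with S100A8/A9 replicate 1 dropped and 0.38 with S100A8/A9 replicate 2 dropped. With the replicate block the SE was 0.061, the interval 0.10 to 0.40, the unadjusted p 0.00544 and the adjusted p 0.268 in limma. A two-sided exact sign-flip permutation test gave p = 0.25 over 3 pairs and p = 0.13 over 4 pairs, the smallest these numbers of pairs allow. With replicate 4 added, the mean within-pair log2 ratio was 0.46 ± 0.42 (SD, n = 4), against 0.25 ± 0.10 (SD, n = 3) without it. Saa3 (ENSMUSG00000040026) lies on the reverse strand of chromosome 7, from 46711998 to 46715700 in mm10. Its liver-expressed relatives Saa1 and Saa2, which share much of its sequence, were at 0.0719 FPKM or less in all 6 libraries.

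Ptx3 encodes a long pentraxin, a secreted pattern-recognition protein that binds microbes and complement C1q. Ptx3 had 0.435, 0.171 and 0.545 FPKM in S100A8/A9 replicates 1 to 3, against 0.288, 0.329 and 1.30 FPKM in vehicle replicates 1 to 3. Only vehicle replicate 3 exceeded 1 FPKM, so the gene was not tested with the others. In replicate 4 Ptx3 had 0.201 FPKM with S100A8/A9 and 0.129 FPKM with vehicle, or 18 reads and 11 reads. The ratio was above 1 in replicates 1 and 4 (1.51 and 1.56) and below 1 in replicates 2 and 3 (0.519 and 0.420). The interval of the replicate 4 ratio was 0.699 to 3.66, so a difference was not detectable at this depth. Without the filter its log2 change was -0.20 with a 95% interval of -0.85 to 0.45 (adjusted p = 0.955 in limma). Ptx3 (ENSMUSG00000027832) is a gene of chromosome 3, on the forward strand from base 66219910 to base 66225805.

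Lcn2 encodes lipocalin 2, which captures bacterial siderophores and so withholds iron from microbes, and which neutrophils store in their specific granules. Lcn2 had 5.53, 22.9 and 45.7 FPKM in S100A8/A9 replicates 1 to 3, against 5.39, 22.5 and 47.3 FPKM in vehicle replicates 1 to 3. Libraries of the same number lay close together and libraries of the same treatment far apart. The highest vehicle library was 8.79 times the lowest, and 99.6% of tested genes had a smaller such spread, with a median of 1.28. The ratios within replicates 1, 2 and 3 were 1.03, 1.02 and 0.966. In replicate 4 Lcn2 had 21.1 FPKM with S100A8/A9 and 9.31 FPKM with vehicle, a ratio of 2.26 with a counting interval of 2.08 to 2.46 from 1847 reads and 779 reads. Lcn2 and Saa3 were the members at least 2-fold higher with S100A8/A9 in replicate 4, where 127 of 11795 genes with a mean of 1 FPKM or more reached that ratio (1.08%).

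Over replicates 1 to 3 the log2 change of Lcn2 was 0.003 ± 0.88 (SE, adjusted p = 0.9998 in limma), with a 95% interval of -2.06 to 2.06. With the replicate block the interval narrowed to -0.15 to 0.16 (adjusted p = 0.998 in limma). The exact sign-flip permutation test, two-sided, gave p = 1 over 3 pairs and p = 0.5 over 4 pairs. Lcn2 (ENSMUSG00000026822) is a gene of chromosome 2, on the reverse strand from base 32384633 to base 32388252.

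The 2 genes whose centred log2(FPKM + 1) profile over the 6 libraries was nearest to that of Lcn2 were S100a9 and S100a8, which encode the subunits of the protein used as treatment. Their root mean square differences from Lcn2 were 0.16 and 0.22 log2 units, where the SD of Lcn2 itself was 1.31. S100a8 had 11.4, 52.5 and 113 FPKM in S100A8/A9 replicates 1 to 3, against 9.72, 44.1 and 125 FPKM in vehicle replicates 1 to 3. S100a9 had 1.88, 7.71 and 21.3 FPKM in S100A8/A9 replicates 1 to 3, against 1.36, 8.02 and 21.6 FPKM in vehicle replicates 1 to 3. Both were lowest in the 2 libraries of replicate 1 and highest in the 2 libraries of replicate 3, as was Lcn2. This shared order follows from picking them by their likeness to Lcn2 over the same libraries. In replicate 4 the ratios were 1.14 for S100a8 and 1.07 for S100a9, beside 2.26 for Lcn2. The third gene, Gm5483, differed by 0.25 log2 units.

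Markers of several cell types also differed between the replicate numbers, and no test of this was run. All 11 macrophage markers were lower in both replicate 3 libraries than in both replicate 1 libraries. By the same rule, 7 of 10 pan dendritic cell markers were lower and 2 were higher. Of 18 on the neutrophil list, 10 were higher by that rule, as Lcn2 was, and 4 were lower. Of the 10 higher ones, S100a8, S100a9, Cd177 and Mmp25 passed the filter. The rest, Ly6g, Retnlg, Ngp, Camp, Prtn3 and the chemokine receptor gene Cxcr2, were too low for it. Of the 4 lower ones, Mmp8, Csf3r and Chil3 passed the filter and Mpo did not. The share of all genes with either order was not counted. Averaged over the list, log2(FPKM + 1) was 2.12, 2.29 and 2.51 in S100A8/A9 replicates 1 to 3, against 2.14, 2.35 and 2.57 in vehicle replicates 1 to 3. Of the 18 genes on the neutrophil list, 7 passed the filter and 0 were called with or without the block, with a median log2 change of 0.07. The specific granule gene Ltf was listed at 0 in 5 of the 6 libraries, and Camp, Ngp and the surface marker Ly6g were at 0.739 FPKM or less. Mmp8, a granule collagenase gene, had 60.5 to 98.3 FPKM with S100A8/A9 and 59.8 to 98.6 FPKM with vehicle, highest in replicate 1 of both groups. The summed level of the list was 9575 to 20344 FPKM with S100A8/A9 and 9490 to 17488 FPKM with vehicle. Chil3, a chitinase-like gene also made by macrophages, supplied nearly all of it, with 9325 to 20200 FPKM in S100A8/A9 libraries and 9235 to 17342 FPKM in vehicle libraries, highest in replicate 1. Chil3 also had the smallest p of the list (adjusted p = 0.853 in the blocked limma fit). Hemoglobin and other erythroid markers summed to 4.59, 7.58 and 115 FPKM in S100A8/A9 replicates 1 to 3, against 3.21, 9.42 and 129 FPKM in vehicle replicates 1 to 3. The part of these markers in the levels of Lcn2 and Hp was not tested.

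The markers of other cell types gave no calls either, with the block or without it. The median log2 change was 0.07 over 11 macrophage markers, 0.02 over 7 tested pan dendritic cell markers and 0.0007 over 4 tested monocyte markers. It was -0.14 each over 2 tested markers of T, NK and B cells and 4 tested erythroid markers. The genes of smallest p were Fcgr1, Cd74, Ccr2, Nkg7 and Hba-a2 in that order of lists, with adjusted p of 0.349, 0.861, 0.755, 0.872 and 0.302 in the blocked limma fit. No fibroblast or stromal marker passed the filter, and the 8 summed to 0.977 to 1.33 FPKM with S100A8/A9 and 0.869 to 1.47 FPKM with vehicle.

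**Figure D2:**
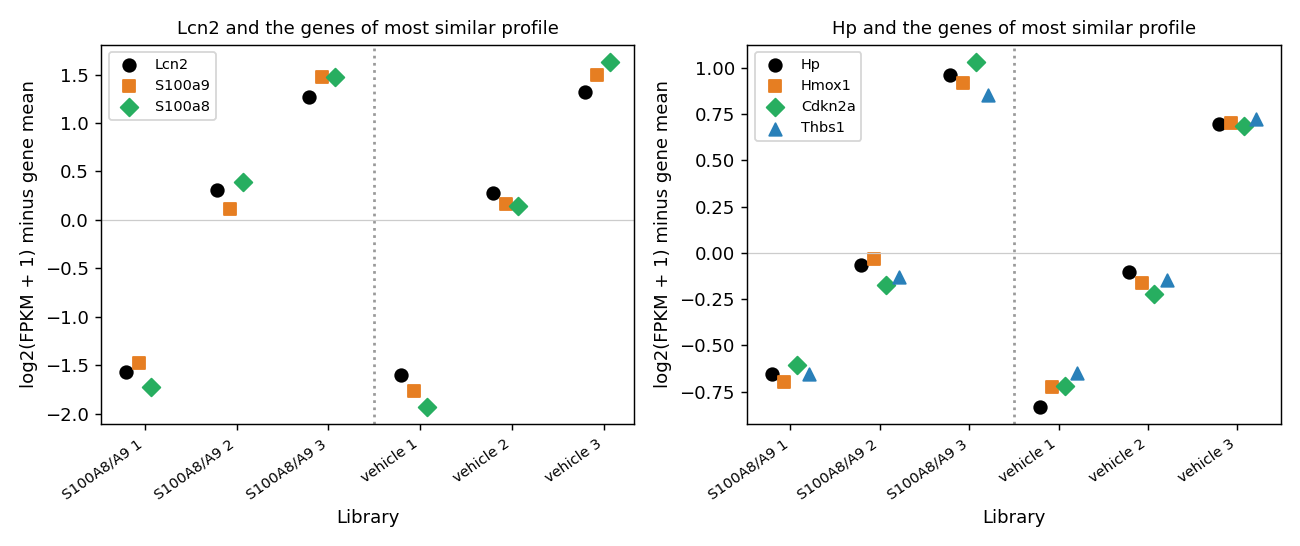
log2(FPKM + 1) minus each gene's mean over 6 libraries (y axis) in S100A8/A9 and vehicle replicates 1 to 3 (x axis), for Lcn2 with S100a9 and S100a8 on the left and Hp with Hmox1, Cdkn2a and Thbs1 on the right. In both panels the 2 libraries of replicate 1 are lowest and the 2 of replicate 3 highest, whichever the treatment. The genes beside Lcn2 and Hp were picked for a similar profile over these libraries.

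Hp encodes haptoglobin, which binds free hemoglobin for uptake by macrophages. Hp had 9.92, 15.5 and 32.5 FPKM in S100A8/A9 replicates 1 to 3, against 8.68, 15.0 and 26.9 FPKM in vehicle replicates 1 to 3. As with Lcn2, the spread between replicate numbers exceeded the difference between treatments, and the highest vehicle library was 3.10 times the lowest. The ratios were 1.14, 1.03 and 1.21 in replicates 1, 2 and 3. In replicate 4 Hp had 81.8 FPKM with S100A8/A9 and 62.6 FPKM with vehicle, a ratio of 1.31 with a counting interval of 1.25 to 1.37. In that table Hp was therefore at about the level of Saa3 with S100A8/A9 and above it with vehicle.

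The log2 change of Hp in replicates 1 to 3 was 0.16 ± 0.48 (SE, adjusted p = 0.9998 in limma), and with the replicate block its interval was -0.02 to 0.34 (adjusted p = 0.696 in limma). The exact sign-flip permutation test, two-sided, gave p = 0.25 over 3 pairs and p = 0.13 over 4 pairs, again the smallest possible. Hp (ENSMUSG00000031722) is a gene of chromosome 8, on the reverse strand from base 109575128 to base 109579172. The gene of most similar profile was Hmox1, which encodes the heme-degrading enzyme heme oxygenase 1, at 0.057 log2 units from Hp where the SD of Hp was 0.71. Hmox1 had 282, 449 and 867 FPKM in S100A8/A9 replicates 1 to 3, against 278, 410 and 746 FPKM in vehicle replicates 1 to 3. Cdkn2a, a cell cycle inhibitor gene, and Thbs1, which encodes the matrix protein thrombospondin 1, followed at 0.088 and 0.092. The hemoglobin scavenger receptor gene Cd163 was at 0.816 FPKM or less in replicates 1 to 3.

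Cp encodes ceruloplasmin, a copper-carrying ferroxidase that helps load iron onto transferrin. Cp had 1.89, 1.15 and 0.974 FPKM in S100A8/A9 replicates 1 to 3, against 2.06, 0.712 and 0.737 FPKM in vehicle replicates 1 to 3. The libraries of replicate 1 were highest in both groups. Its ratios of 0.915, 1.61 and 1.32 in replicates 1, 2 and 3 had no shared direction, and in replicate 4 the ratio was 0.836, from 0.463 FPKM with S100A8/A9 and 0.554 FPKM with vehicle. The counting interval of the replicate 4 ratio was 0.666 to 1.05, so it included a ratio of 1. The log2 change in replicates 1 to 3 was 0.14 ± 0.27 (SE), with a 95% interval of -0.49 to 0.77 (adjusted p = 0.9998 in limma, and 0.883 with the replicate block).

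Cp (ENSMUSG00000003617) is a gene of chromosome 3, on the forward strand from base 19957054 to base 20009145. It shares 108 exonic bases with Hps3 on the opposite strand. No strand marking is stated for these libraries, so reads in that stretch cannot be assigned to 1 of the pair. Hps3 had 12.4, 15.3 and 15.4 FPKM in S100A8/A9 replicates 1 to 3, against 11.5, 15.8 and 14.6 FPKM in vehicle replicates 1 to 3. Hps3 was lowest in replicate 1, where Cp was highest. The gene of most similar profile to Cp was Ly9, a receptor of the SLAM family, at 0.056 log2 units, followed by Fxyd2 and Anxa3 at 0.072 and 0.073, where the SD of Cp was 0.36.

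Sod2 encodes the manganese superoxide dismutase of mitochondria, which turns superoxide into hydrogen peroxide and is a known NF-kB target. It varied least of the 6 genes among vehicle replicates 1 to 3, where the highest library was 1.19 times the lowest. Sod2 had 16.8, 17.5 and 18.0 FPKM in S100A8/A9 replicates 1 to 3, against 13.4, 13.5 and 15.9 FPKM in vehicle replicates 1 to 3. All 3 S100A8/A9 libraries were above all 3 vehicle libraries, as for 536 of 11387 genes (4.71%). In replicate 4 Sod2 had 19.6 FPKM with S100A8/A9 and 14.9 FPKM with vehicle. The ratios were 1.25, 1.29, 1.13 and 1.31 in replicates 1 to 4, so replicate 4 differed little from replicates 1 and 2, unlike Saa3 and Lcn2. The counting interval of the replicate 4 ratio was 1.26 to 1.36.

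Sod2 averaged 17.4 ± 0.609 FPKM with S100A8/A9 and 14.3 ± 1.44 FPKM with vehicle (SD, n = 3 each), and a two-sided exact permutation test of log2(FPKM + 1) gave p = 0.1, the smallest that 3 against 3 allow. The log2 change was 0.27 ± 0.10 (SE, 95% interval 0.03 to 0.51), and limma gave an unadjusted p of 0.0304 and an adjusted p of 0.9998. With the replicate block the unadjusted p was 0.00735 and the adjusted p 0.304 in limma. With all 8 libraries and the block, the log2 change was 0.30 ± 0.056 (SE), and limma's adjusted p was 0.259, with Sod2 ranking 34 of 11180 genes by p. In that fit Hp ranked 307, Saa3 324, Lcn2 2415 and Cp 6109. Their adjusted p in limma was 0.400, 0.403, 0.759 and 0.895. Sod2 (ENSMUSG00000006818) is a gene of chromosome 17, on the forward strand from base 13006846 to base 13040063. Mtm1, a lipid phosphatase gene, Pdcd5-ps and the proteasome subunit gene Psma7 had the most similar profiles, at 0.044, 0.050 and 0.051 log2 units, where the SD of Sod2 was 0.17. For Saa3 these were Kynu, an enzyme of tryptophan breakdown, Gstm2, a glutathione transferase, and Gnb4, a G protein subunit, at 0.054, 0.062 and 0.074, where the SD of Saa3 was 0.27.

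**Figure D3:**
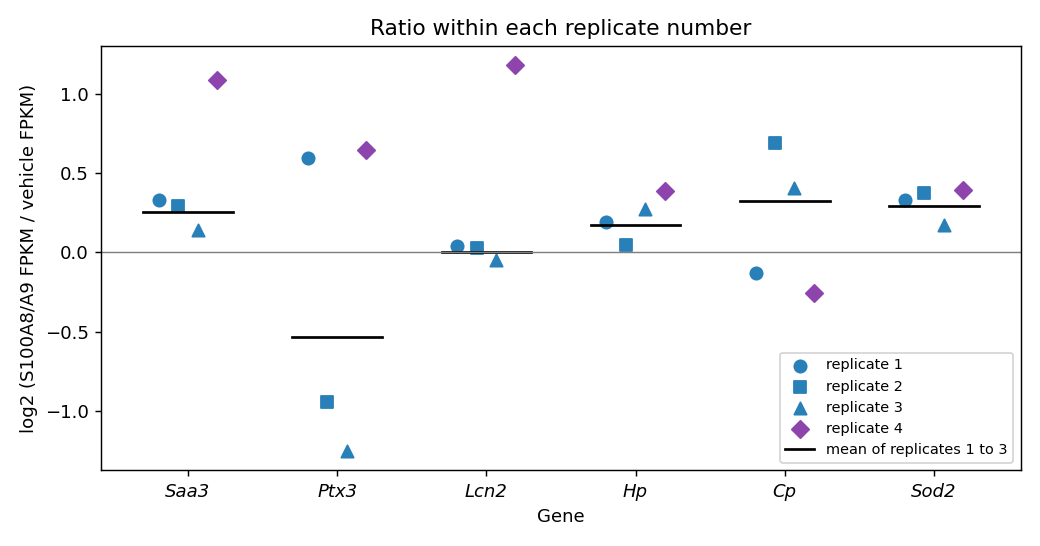
log2 ratio of S100A8/A9 to vehicle FPKM within each replicate number (y axis) for each gene (x axis), with replicates 1 to 3 in blue, replicate 4 in purple and the mean of replicates 1 to 3 as a bar. Sod2 keeps between 0.17 and 0.39 in all 4 numbers, while Saa3 and Lcn2 reach 1.09 and 1.18 in replicate 4 alone.

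By mean vehicle level in replicates 1 to 3, the order was Saa3 (68.0 ± 12.0 FPKM), Lcn2 (25.1 ± 21.1), Hp (16.9 ± 9.26), Sod2 (14.3 ± 1.44), Cp (1.17 ± 0.772) and Ptx3 (0.638 ± 0.571), each with SD and n = 3. Lcn2, Hp and Sod2 overlapped one another, as did Cp and Ptx3. Saa3 was above the other 5 in every one of the 6 libraries, and Cp and Ptx3 were at 2.06 FPKM or less in all of them. The level of Lcn2 relative to Sod2 turned round between libraries, with Sod2 higher in replicate 1 and Lcn2 higher in replicates 2 and 3 of both groups.

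Of 28 other acute phase genes, 11 passed the filter and 0 were called with or without the block, with a median log2 change of 0.06. Of the 11, 6 were higher with S100A8/A9 in all 3 numbers and 3 were lower, beside 19.4% and 9.62% of all tested genes. Crp, Fgg, Steap4 and Serpina1a were listed at 0 in all 6 libraries. The complement gene C3, chosen after its values were seen, had 266 to 347 FPKM with S100A8/A9 and 259 to 330 FPKM with vehicle. Serpina3g, a protease inhibitor gene, had the smallest p with the block, with ratios of 1.33, 1.25 and 1.23 in replicates 1 to 3 (adjusted p = 0.268 in the blocked limma fit) and 0.900 in replicate 4. It belongs to a gene cluster whose members can share reads. The metallothionein genes Mt1 and Mt2, chosen after their values were seen, were lower with S100A8/A9 in each of the 3 numbers, with log2 changes of -0.27 and -0.22 (adjusted p = 0.343 and 0.414 in the blocked limma fit). Of all tested genes 1095 were lower in each number. In replicate 4 Mt1 had 123 FPKM with S100A8/A9 and 114 FPKM with vehicle, and Mt2 had 1.68 FPKM with S100A8/A9 and 2.24 FPKM with vehicle.

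Of 16 genes for inducing cytokines and their receptors, 13 were tested and 0 called, with a median log2 change of 0.14, and 7 of the 13 were higher in all 3 numbers, beside 19.4% of all tested genes. That count was 4 of 14 for transcription factors and feedback inhibitors, 6 of 15 for receptors and binding partners, and 5 of 13 for superoxide and peroxide removal. These lists and the other acute phase genes were chosen with earlier results of these data known. Their counts are therefore no test against that share. Il1b, which encodes interleukin-1 beta, had ratios of 1.69, 1.61 and 1.52 in replicates 1 to 3. Its adjusted p in limma was 0.0631 with the block and 0.9998 without it. In replicate 4 Il1b had 52.6 FPKM with S100A8/A9 and 29.1 FPKM with vehicle. Of 14 transcription factors and feedback inhibitors, all were tested and 0 called, with a median of 0.06. Nfkb1, which encodes an NF-kB subunit, had the smallest p there, with a log2 change of 0.19 (adjusted p = 0.42 in the blocked limma fit). Socs3, a feedback inhibitor of STAT3 signaling chosen after its values were seen, was lower with S100A8/A9 in replicates 1 to 3 (log2 change -0.12, adjusted p = 0.853 in the blocked limma fit). In replicate 4 Socs3 had 24.3 FPKM with S100A8/A9 and 12.2 FPKM with vehicle.

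Of 20 receptors and binding partners of the member proteins, 15 were tested and 0 called, with a median of 0.07. Tlr2, an innate receptor through which serum amyloid A can signal, had 43.3, 40.8 and 44.8 FPKM in S100A8/A9 replicates 1 to 3, against 30.3, 33.3 and 33.9 FPKM in vehicle replicates 1 to 3. All 3 S100A8/A9 libraries were above all 3 vehicle libraries, as for 536 of 11387 genes (4.71%). The adjusted p was 0.0894 in the blocked limma fit, against 0.828 in the fit without the block. In replicate 4 Tlr2 had 119 FPKM with S100A8/A9 and 102 FPKM with vehicle. That ratio was 1.16, beside 1.43, 1.22 and 1.32 in replicates 1 to 3. Of 14 genes for superoxide and peroxide removal, 13 were tested and 0 called, with a median of 0.08. Prdx1, a peroxide-reducing enzyme gene, had ratios of 1.29, 1.25, 1.22 and 1.09 in replicates 1 to 4. Its adjusted p in limma over replicates 1 to 3 was 0.068 with the block and 0.9998 without it. The cytosolic superoxide dismutase gene Sod1 had a log2 change of -0.08 (adjusted p = 0.861 in the blocked limma fit), beside 0.27 for Sod2.

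**Figure D4:**
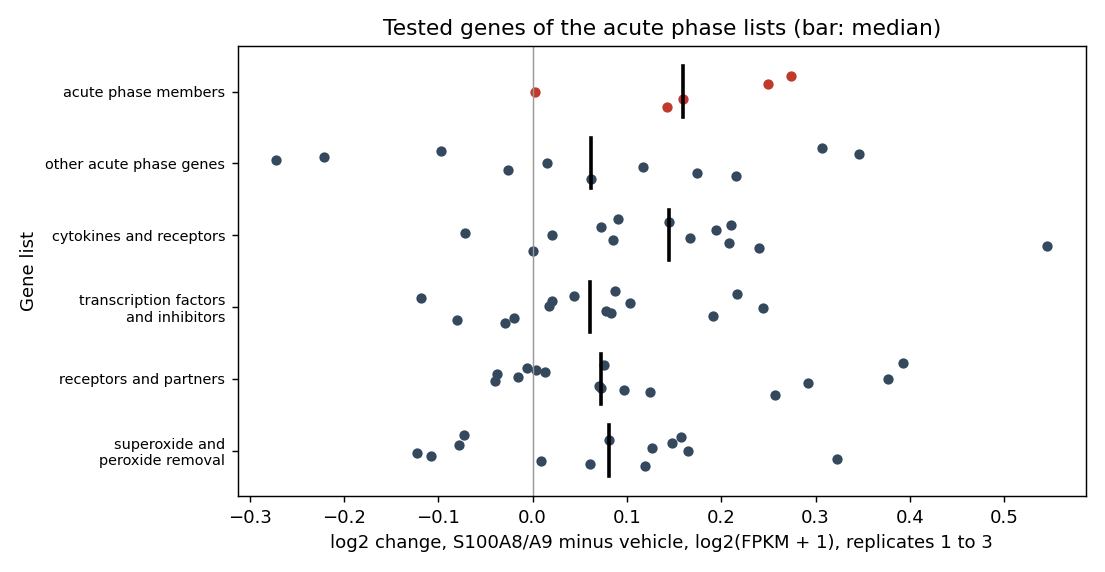
log2 change of S100A8/A9 minus vehicle on the log2(FPKM + 1) scale in replicates 1 to 3 (x axis) for the tested genes of 6 lists (y axis), 1 point per gene with the list's median as a bar. The medians lie between 0.06 and 0.16, and Il1b at 0.55 is the point farthest to the right.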

How the data were processed

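Poly(A) RNA of 8 cultures went through Illumina sequencing, per the labels' protocols. The deposited values are FPKM made by the authors, a unit inferred from the values, since no header or label names it. The tools listed in the submitters' processing notes, with no roles, are DESeq2 1.34.0, featureCounts, Subread and HISAT2, and the build is mm10. The series table equalled all 8 per-sample tables. Low values of replicate 4 were whole reads within 0.01 reads in 98.5% (vehicle) to 98.8% (S100A8/A9) of cases, given each gene's exon length in GENCODE. The read scale was tuned to raise this share in replicate 4 only. At an untuned scale the share was 4.75% to 5.53% in replicates 1 to 3. The shares can therefore not be compared, and the reads of replicates 1 to 3 are rough. The 2 tables list 55450 and 24848 genes. Counts were not tested.

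The test was limma-trend (limma 3.58.1, R 4.3.3) on log2(FPKM + 1), replicates 1 to 3, group as the only term, for genes reaching 1 FPKM in 3 or more of 6 libraries, with two-sided Benjamini-Hochberg adjusted p over all tested genes, called under 0.05. Fold changes on this scale understate changes of low genes. Deviations from the group means correlated at 0.59, 0.25 and 0.52 over genes between libraries of the same number, and at -0.53 to -0.01 between others, so libraries of 1 number were treated as pairs and the blocked fit is printed too. P-values measure the spread between these libraries, which may be technical. Ratios are of FPKM within a number, and exact permutation tests used scipy 1.17.1. The limma code was tested on simulated data. Promoters came from a RefSeq table that held 5 of the 6 members, all but Hp.

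The members and lists were chosen with earlier results of these data known. Genes named besides the members were those of each list called in either fit or, with none called, of smallest p in the blocked fit, and the 3 most similar profiles per tested member, plus genes stated as chosen after their values were seen or given as background on a list.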

Additional observations from a re-analysis of the deposited data

Results flagged for a closer look

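The within-number log2 ratios of Lcn2 were 0.04, 0.03 and -0.05 in replicates 1 to 3 and 1.18 in replicate 4, which stood far from the other 3. Replicate 4 comes from the separately made table, and table and replicate cannot be told apart. Saa3 had its highest log2 ratio, 1.09, in replicate 4 too, at a gap short of the limit used. Chance alone marks about 1 in 20 such groups, and 6 groups of 4 ratios were looked at.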

How the results depend on the processing

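No member was past the adjusted threshold under any of 95 alternative fits over the 5 tested members, and 82 of them kept the direction. Adding the block or removing the filter cannot alter the log2 change over the 6 libraries, so those alternatives kept the direction by construction. Saa3 and Sod2 kept theirs in all 19 alternatives each, with log2 changes of 0.10 to 0.45 and 0.22 to 0.35 and adjusted p in limma from 0.182 and from 0.259. Dropping 1 library changed the log2 change of Saa3 more than 1.5-fold, up or down from 0.25, in 3 cases. It fell to 0.0994 without vehicle replicate 2 and to 0.119 without S100A8/A9 replicate 1. It rose to 0.38 without S100A8/A9 replicate 2. With upper-quartile factors, median-of-ratios factors and quantile normalization, each with the block, Saa3 had log2 changes of 0.19, 0.22 and 0.17. Its unadjusted p in limma was then 0.0288, 0.0155 and 0.0468. In the same order the changes were 0.22, 0.25 and 0.22 for Sod2, 0.10, 0.13 and 0.11 for Hp, and 0.11, 0.13 and 0.17 for Cp. The median over all tested genes moved by -0.050 with upper-quartile and -0.026 with median-of-ratios factors. Over its alternatives Lcn2 ranged from -0.80 to 0.79, Hp from -0.28 to 0.55 and Cp from -0.02 to 0.42. Lcn2 turned negative with median-of-ratios factors (-0.0261, with the replicate block or without it), and with upper-quartile factors (-0.0521) or quantile normalization (-0.0379) and the block.
Leaving out single libraries, the log2 change lay from -0.80 to 0.79 for Lcn2, from -0.28 to 0.55 for Hp and from -0.02 to 0.42 for Cp. It was negative for Lcn2 when vehicle replicate 1 (-0.80) or replicate 3 (-0.63) or 2 (-0.15) of S100A8/A9 was left out, for Hp without S100A8/A9 replicate 3 (-0.28) or vehicle replicate 1 (-0.22), and for Cp without S100A8/A9 replicate 1 (-0.0201) or vehicle replicate 2 (-0.000766). With the block it was -0.0112 for Lcn2 without replicate 1 and -0.00835 without replicate 2. The mean within-pair log2 ratio of Lcn2, an alternative chosen after seeing the data, was -0.0112 and -0.00597 without those replicates.
The count of called genes was 0 as reported and 59 with the replicate block. With the block it was 62 with a pseudocount of 0.1, and 3 each with upper-quartile factors, median-of-ratios factors or quantile normalization. It was 0 without the filter or with all 8 libraries and the block, where 1371 and 901 genes had an unadjusted p under 0.05 in limma. Leaving out single libraries gave 0 to 1, with 1 without vehicle replicate 2. Leaving out whole replicate numbers with the block gave 42, 95 and 5 without replicates 1, 2 and 3. Apart from the single libraries the cause of these moves was not tested. Depth limits Ptx3 and, in replicate 4, the ratio of Cp. In replicates 1 to 3, where the depth is rough, Cp had about 161 to 484 reads per library.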
